A study of Mus musculus with 15 samples.

Results

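The 46 genes described here encode proteins that copy the chromosomes and then divide them. They were chosen by symbol and fall into 7 roles: 10 genes of origin licensing and helicase loading, 4 of nucleotide synthesis, 7 of the replication fork, 6 of G1/S control and chromatin assembly, 7 that regulate mitotic entry and exit, 3 of the spindle checkpoint and 9 of the spindle, kinetochore and chromosome structure. All 46 were on the array, among 16593 named genes, with 76 of its 25697 probes. A probe was kept where its detection p was under 0.01 on at least 3 of the 15 arrays, which held for 67 of the 76 and for at least 1 probe of every gene. The brightest kept probe stood for its gene, so the 46 genes were tested among 8228. These comprise 7576 named genes and 652 probes without a symbol, each counted as a gene. Of the 46 genes, 43 were detected on all 15 arrays, and Prim1, Ccna2 and Ttk on fewer, with 12 the fewest.

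RNA was measured on Illumina mouse BeadChips in 4TO7 and 4T1, mouse mammary carcinoma lines derived from the same tumour. There were 5 groups of 3 arrays. In 4TO7 the retroviral vector was pBabepuro, either with TM4SF1 or empty, and the 4T1 cells carried a lentiviral pLKO hairpin, which was shTM4SF1-1 (hairpin 1), shTM4SF1-5 (hairpin 5) or a scrambled control. All 5 groups were stable transduced lines, and the labels do not say whether a line was 1 clone or a pool, or whether the arrays labelled biological replicates came from separately grown cultures, so the p-values measure the spread between these arrays. The study asked which transcripts differ when Tm4sf1, a gene for a membrane protein related to the tetraspanins, is knocked down in 4T1 or TM4SF1 is introduced into 4TO7.

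In G1, the proteins Cdc6 and Cdt1 load the MCM2-7 helicase onto origins of replication. Cyclin E and its kinase, together with the E2F transcription factors, then bring the cell into S phase, when Cdc45 and Mcm10 help to activate the helicase and polymerases, clamp and clamp loader copy the DNA. Cdk1, the Aurora and Polo kinases and the anaphase-promoting complex later drive the cell through mitosis. Transcripts of the replication genes crest around the G1/S boundary and those of the mitotic genes in G2 and M, so in a growing culture their levels are commonly read as signs of cycling. In extracts of whole cultures a smaller number of cells in a phase and less RNA per cell cannot be told apart.

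The promoters of the 46 genes carry different sequence elements, shown here because the roles of the genes are also used to describe the line comparison. E2F factors are known to bind elements in replication gene promoters, and the cell cycle homology region (CHR), often near CCAAT boxes, is known from mitotic genes. RefSeq promoter windows (GRCm38.p6, 250 bases before to 50 after the start) matched 40 of the 46 genes with 44 windows, and Mcm4, Pole, Ccne2, Ccna2, Cdc25c and Tpx2 had none. Both strands were searched for TTTCCCGC, TTTGGCGC, TTTCGCGC and TTTGCCGC as E2F elements, for TTTGAA and TTCGAA as CHR elements and for CCAAT. An E2F element stood in 9 of 44 windows (20.5%), against 2.26% of all 32851 windows of the table. A CHR element stood in 18 windows (40.9%), against 19.2%, and a CCAAT box in 28 (63.6%), against 37.4%. Of the 27 windows of replication and G1/S genes, licensing genes included, 29.6% held an E2F element and 14.8% a CHR element. The 17 windows of mitotic genes were the other way round, with 5.88% holding an E2F element and 82.4% a CHR element. Of the 40 genes, 4 had more than 1 window, and matches of different motifs overlapped once. A match of letters is a description of the window and no evidence that a factor binds there.

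**Figure D1:**
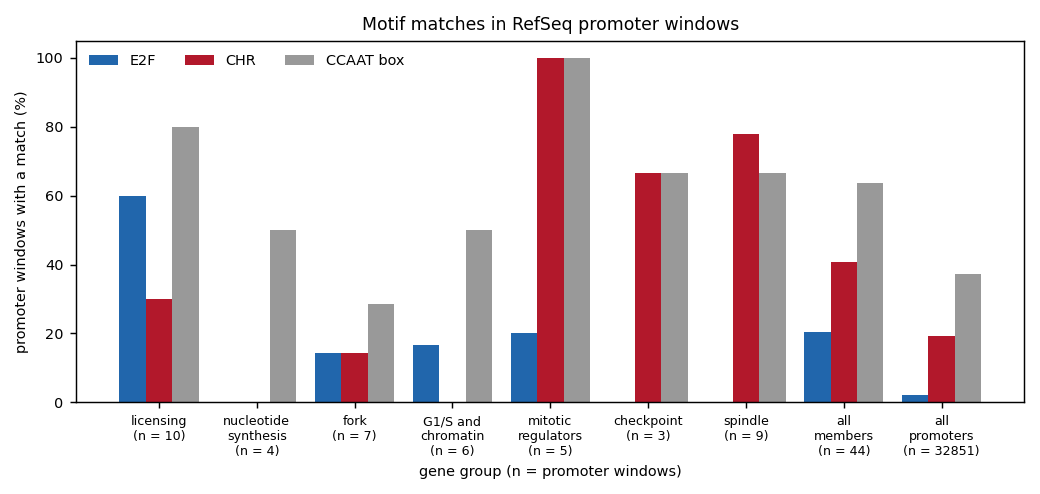
Share of RefSeq promoter windows (percent, y axis) with a match to an E2F element (blue), a CHR element (red) or a CCAAT box (grey), for the 7 roles, all 44 windows of the genes described and all 32851 windows of the table (x axis, n is the number of windows). E2F matches are most frequent in the licensing genes (60%) and CHR matches in the mitotic regulators, where all 5 windows hold one.

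Of these windows, 4 are printed 5′ to 3′ on the gene's strand, with matches in capitals, to show an E2F promoter, a promoter with both elements, a CHR promoter and one with no match. Mcm3 (chr1:20820263-20820562, minus strand) has E2F matches 20 and 39 bases into the transcript and 3 CCAAT boxes upstream. Cdk1 (chr10:69352863-69353162, minus strand) has 1 E2F match, 2 CHR matches and 3 CCAAT boxes. Bub1b (chr2:118597961-118598260, plus strand) has 2 CHR matches and 1 CCAAT box, and Ccne1 (chr7:38107441-38107740, minus strand) has none of the elements searched.
Mcm3: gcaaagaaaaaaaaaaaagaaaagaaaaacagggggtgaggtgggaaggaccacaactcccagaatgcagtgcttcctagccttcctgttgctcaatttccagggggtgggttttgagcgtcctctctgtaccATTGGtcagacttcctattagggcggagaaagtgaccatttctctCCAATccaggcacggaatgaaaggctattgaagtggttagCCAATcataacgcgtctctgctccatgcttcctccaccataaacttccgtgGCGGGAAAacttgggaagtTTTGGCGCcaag
Cdk1: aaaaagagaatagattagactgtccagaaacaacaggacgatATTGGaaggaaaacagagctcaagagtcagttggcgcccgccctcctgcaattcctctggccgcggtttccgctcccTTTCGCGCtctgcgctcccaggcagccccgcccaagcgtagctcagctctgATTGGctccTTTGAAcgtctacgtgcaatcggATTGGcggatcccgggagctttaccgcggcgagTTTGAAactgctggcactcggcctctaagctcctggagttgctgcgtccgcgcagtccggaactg
Bub1b: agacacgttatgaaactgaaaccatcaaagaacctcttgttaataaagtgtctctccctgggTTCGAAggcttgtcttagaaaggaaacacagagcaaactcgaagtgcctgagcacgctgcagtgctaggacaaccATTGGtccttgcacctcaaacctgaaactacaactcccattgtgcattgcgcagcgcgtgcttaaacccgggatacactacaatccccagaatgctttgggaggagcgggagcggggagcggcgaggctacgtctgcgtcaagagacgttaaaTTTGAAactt
Ccne1: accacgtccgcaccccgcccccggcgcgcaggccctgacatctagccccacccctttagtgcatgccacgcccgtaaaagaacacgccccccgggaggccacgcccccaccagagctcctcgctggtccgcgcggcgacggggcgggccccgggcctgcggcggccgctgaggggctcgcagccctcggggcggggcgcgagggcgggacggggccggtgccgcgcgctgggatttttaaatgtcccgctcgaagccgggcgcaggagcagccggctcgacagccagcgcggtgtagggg

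Values are normalized log2 intensities throughout, and a difference is a log2 fold change with the first-named group on top. Detected probes numbered 9436 to 10703 per array, with mean raw signals of 222 to 418.6. Across genes, r was 0.9866 to 0.9947 within a group and 0.9224 to 0.9345 between the lines. The 46 genes varied less between replicates than most, with a median SD of 0.118 against 0.153 over all 8228 genes. They were also brighter, with group means of 9.21 to 9.29 against 7.81 to 7.82 over all genes. The part of brightness in their lower spread was not tested. Of the 8 marker genes on the array for the labelled cell type, the keratins Krt8 and Krt18 were detected on all arrays. Krt7 was detected only in 4T1, and Krt14, Krt19 and Cldn7 on no array. Cdh1 was detected on no array of 4TO7, hairpin 5 or scramble, and on some but not all arrays of hairpin 1. Cldn4 was detected on no array of 4TO7, on all 3 of hairpin 1, and on 2 of 3 of hairpin 5 and of scramble. Neither the 3 collagens of the fibroblast list nor any of 6 leukocyte markers was detected in any group. Of the other fibroblast markers, Thy1 and Lum were detected on no array and Pdgfra on every array. Dcn, for decorin, was detected on all 3 arrays of each group except scramble (2 of 3), and Pdgfrb on all 3 arrays of hairpin 1 and on none of 4TO7. Among the tested markers of both lists, the one called within 4T1 was Dcn, which was higher with hairpin 5 than with scramble (0.95, adjusted p = 1.79e-04, limma) and lower with hairpin 1 than with hairpin 5 (-0.73, adjusted p = 0.0067, limma). Its part in the hairpin results was not tested.

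Tm4sf1 (probe ILMN_2462650) read 8.53, 8.30 and 8.40 in 4TO7 with TM4SF1, against 8.68, 7.85 and 8.29 with the empty vector. The arrays labelled TM4SF1 were therefore not separated from the controls at this probe (0.14, SE 0.194, adjusted p = 0.933, limma). The labels do not say whether the probe lies within the introduced sequence, and if it lies outside, it checks nothing. It read 6.77, 6.96 and 7.09 with hairpin 1, 7.07, 6.72 and 5.96 with hairpin 5, and 8.17, 8.01 and 8.03 with scramble. Both knockdowns were visible, at -1.13 with hairpin 1 (SE 0.194, adjusted p = 4.91e-04, limma) and -1.49 with hairpin 5 (SE 0.194, adjusted p = 1.87e-05, limma), with no overlap of arrays.

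Averaged over the 46 genes, the arrays hardly differed. The mean log2 intensity per array lay between 9.20 and 9.27 in 4TO7 with TM4SF1 and between 9.19 and 9.23 with the empty vector. In 4T1 it lay between 9.27 and 9.30 with hairpin 1, between 9.22 and 9.34 with hairpin 5 and between 9.25 and 9.27 with scramble. Within lines the genes did not move as 1 block either: the median pairwise correlation over the 15 arrays, with line means removed, was 0.01. As a description over the same 15 arrays, the 46 genes, with line means removed, were each divided by their SD and averaged. The 5 other named genes that ran most like this average, line means removed, were Nme1 (r = 0.866), Arntl (0.857), Bloc1s4 (0.831), Rpia (0.816) and Cbwd1 (0.815). They are the highest values among all other named genes tested, and they share each array's normalization.

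**Figure D2:**
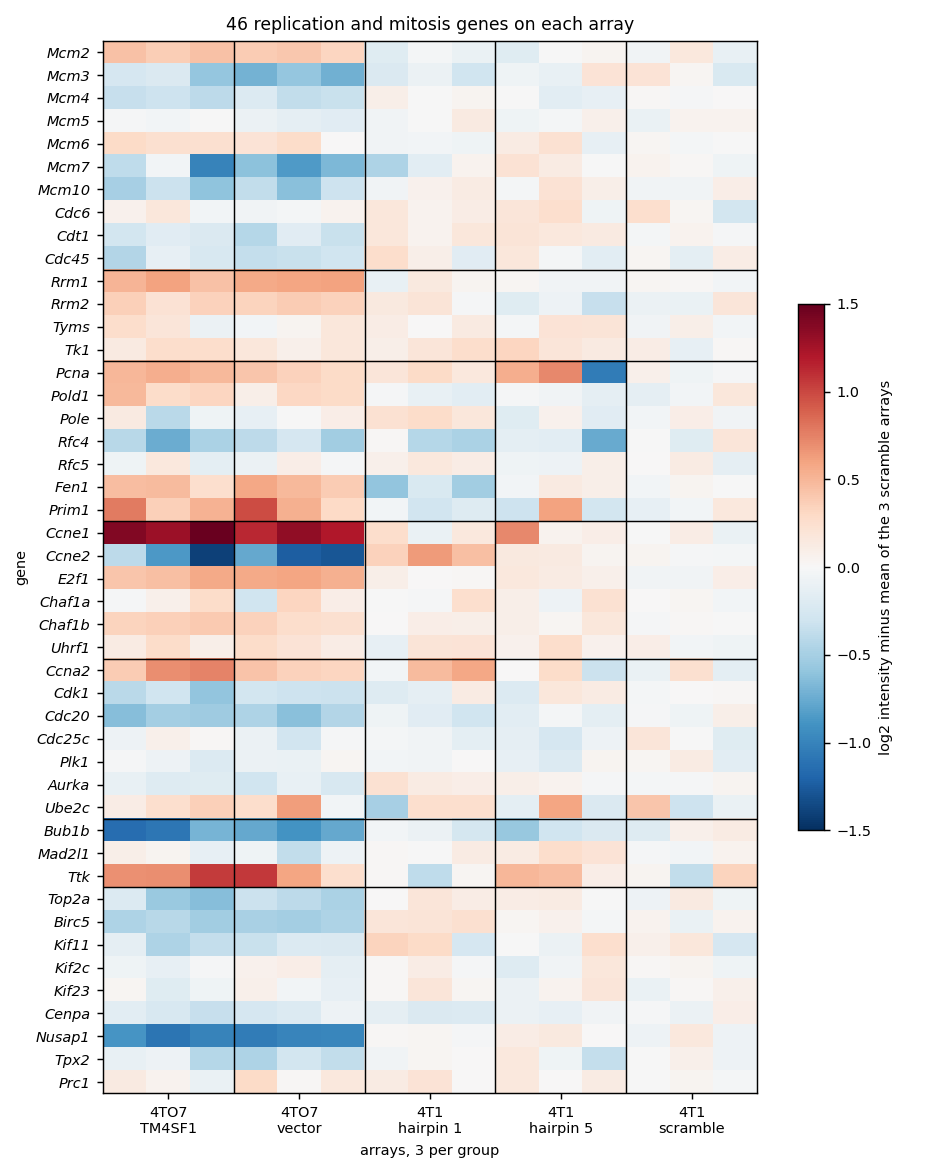
Log2 intensity of each of the 46 genes (rows, grouped by role from licensing at the top to spindle at the bottom) on each of the 15 arrays (columns), minus the mean of the 3 scramble arrays of 4T1. Red is higher and blue lower than that mean. Most of the contrast lies between the 6 arrays of 4TO7 and the 9 of 4T1, and Pcna stands out low on the third array of hairpin 5.

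Knockdown of Tm4sf1 in 4T1 left nearly all of these transcripts within a narrow range of the scramble control. With hairpin 1, Fen1, which encodes the flap endonuclease that trims Okazaki fragments, fell, and none of the 46 rose. That is 1 of 46 genes (2.17%), against 5.83% of all genes tested in that comparison (3.01% higher and 2.82% lower). With hairpin 5, 0 of the 46 passed an adjusted p of 0.05 in limma, against 3.52% of all genes (1.34% higher and 2.19% lower). Groups did not overlap for 10 of the 46 with hairpin 1 (21.7%), against 25.1% of all genes, and for 5 with hairpin 5 (10.9%), against 20.8%. At an unadjusted p under 0.05 there were 8 genes with hairpin 1 (17.4%), against 18.4% of all genes, and 5 with hairpin 5 (10.9%), against 15.7%. The 95% interval of the log2 fold change lay within ±1 for all 46 genes with either hairpin. It lay within ±0.5 for 38 with hairpin 1 and for 40 with hairpin 5. Of all 8228 genes, 8063 lay within ±1 with hairpin 1 and 8116 with hairpin 5, and 5284 and 5486 within ±0.5. The median log2 fold change of the 46 was 0.04 with hairpin 1, against 0.00 over all genes, and 0.04 with hairpin 5, against 0.01. Under median scaling of the arrays these medians turned negative, at -0.10 with hairpin 1 and -0.01 with hairpin 5, where the medians of all genes were -0.12 and -0.05. Both hairpin comparisons share the scramble arrays.

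Fen1 read 8.91, 9.27 and 8.98 with hairpin 1, 9.46, 9.63 and 9.59 with hairpin 5, and 9.46, 9.54 and 9.49 with scramble. All 3 arrays of hairpin 1 were lower than every array of the other 4T1 groups, while the arrays of hairpin 5 and scramble overlapped. Hairpin 1 minus scramble was -0.45 (SE 0.0938, 95% interval -0.64 to -0.26, adjusted p = 0.0035, limma), a level 1.36-fold lower. Hairpin 1 minus hairpin 5 was -0.51 (95% interval -0.70 to -0.32, adjusted p = 0.0029, limma), the only one of the 46 genes called between the hairpins, against 1.86% of all genes (1.25% higher and 0.608% lower with hairpin 1). The hairpins did not overlap for 10 of the 46 (21.7%), against 17.1% of all genes. Hairpin 5 minus scramble was 0.06 (95% interval -0.13 to 0.25, adjusted p = 0.82, limma). A single probe reported Fen1, and median scaling of the arrays, which raised the SE, ended both calls at values of -0.58 and -0.58. Over all 20 alternatives the difference lay between -0.58 and -0.38 against scramble and between -0.62 and -0.44 against hairpin 5.

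None of the other 6 genes of the fork was called with either hairpin. With hairpin 1, 4 of the 7 fork genes, Fen1 included, lay below 0, against 4089 of all 8228 genes, and the median was -0.10. Rfc4, a subunit of the clamp loader, stood at -0.29 with hairpin 1 and -0.35 with hairpin 5, with adjusted p = 0.269 and 0.208 (limma). Prim1, the catalytic subunit of primase, stood at -0.18 and 0.01, and Pole, the leading strand polymerase, at 0.22 and -0.10. Pcna, the sliding clamp, was singled out after its values were seen because of 1 array. It read 9.28, 9.44 and 7.67 with hairpin 5, against 8.80, 8.67 and 8.71 with scramble, so that 2 arrays of hairpin 5 were above every scramble array and the third was below them all. The fitted difference was 0.07 (SE 0.236, adjusted p = 0.929, limma), and without the third array it was 0.63 (adjusted p = 1.1e-04, limma). The third array's deposited intensity at this probe was 327.7, against 485.2 and 813.1 on the other arrays of hairpin 5, although the array was brighter than those on average. With hairpin 1, Pcna read 8.90, 9.01 and 8.89.

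Among the G1/S genes, Ccne2, for the cyclin E2 that activates Cdk2, was also singled out after its values were seen. It read 8.001, 8.30 and 8.11 with hairpin 1, 7.80, 7.79 and 7.70 with hairpin 5, and 7.70, 7.64 and 7.62 with scramble. Hairpin 1 stood apart from scramble on every array, by 0.48 (95% interval 0.13 to 0.83), which did not pass the adjustment over all genes (adjusted p = 0.108, limma). It did pass when only the arrays compared were fitted (adjusted p = 0.00883) or without background correction (0.35, adjusted p = 0.0339). Its paralogue Ccne1 stood at 0.11 with hairpin 1 and 0.29 with hairpin 5. All 6 G1/S and chromatin assembly genes had differences above 0 with each hairpin, between 0.04 and 0.48 with hairpin 1 and between 0.08 and 0.29 with hairpin 5, and none was called. Of all 8228 genes, 4139 lay above 0 with hairpin 1 and 4222 with hairpin 5. The 2 comparisons share the scramble arrays, so they are not separate results.

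Licensing genes lay between -0.20 and 0.13 with hairpin 1 and between -0.10 and 0.16 with hairpin 5. The 4 nucleotide synthesis genes lay between 0.02 and 0.18 and between -0.20 and 0.21. Tk1, thymidine kinase, was the highest of them with both, at 0.18 and 0.21 (adjusted p = 0.217 and 0.158, limma).

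None of the 19 mitotic genes was called with either hairpin. With hairpin 5 the lowest was Bub1b, for the checkpoint kinase BubR1, which read 8.03, 8.31 and 8.39, against 8.41, 8.69 and 8.73 with scramble. The groups did not overlap, although the highest array of hairpin 5 was close to the lowest of scramble, and the difference of -0.36 did not pass the adjustment (95% interval -0.62 to -0.11, adjusted p = 0.119, limma). The highest was Ttk, for the checkpoint kinase Mps1, at 0.35 (95% interval -0.09 to 0.80, adjusted p = 0.455, limma). Birc5, for the chromosomal passenger survivin, read 10.97, 10.99 and 11.03 with hairpin 1, against 10.84, 10.69 and 10.84 with scramble. That difference of 0.20 missed the threshold (adjusted p = 0.0847, limma) and passed it with array weights (adjusted p = 0.0453). Plk1, Aurka, Cdk1 and Cdc20 lay between -0.18 and 0.15 with hairpin 1 and between -0.11 and 0.04 with hairpin 5.

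**Figure D3:**
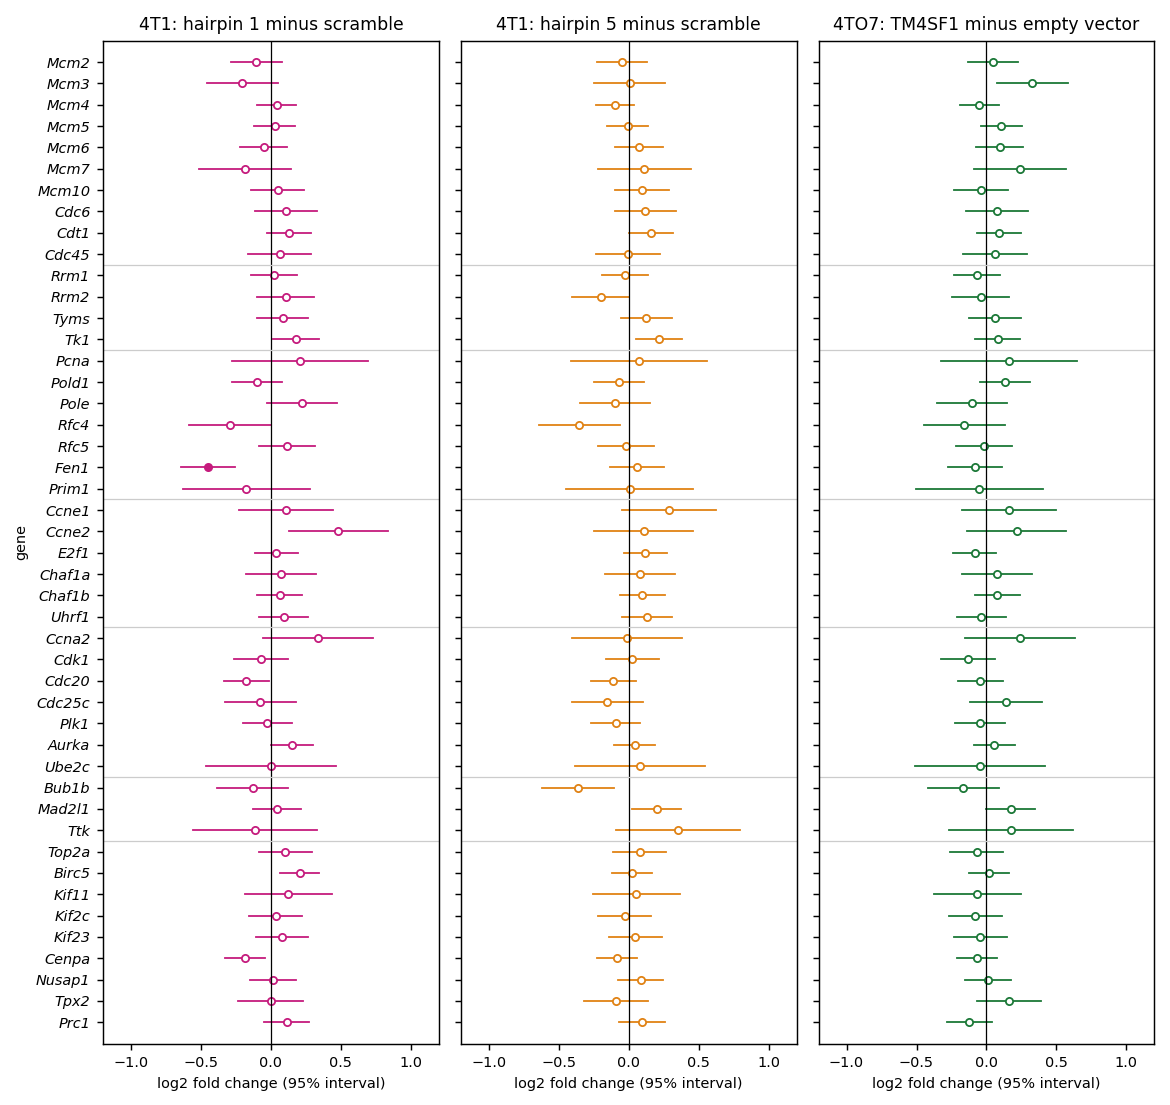
Log2 fold change (x axis) with its 95% interval for each of the 46 genes (rows, in the same order) in 3 comparisons, hairpin 1 minus scramble and hairpin 5 minus scramble in 4T1 and TM4SF1 minus empty vector in 4TO7. Filled points passed an adjusted p of 0.05 in limma, which only Fen1 with hairpin 1 did, and no interval reaches 1 in either direction.

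Few further genes of the same processes were called under knockdown. Of 34 other replication genes, 0 rose and 1 fell with hairpin 1 (2.94%, against 5.83% of all genes). The gene that fell was Ung, for uracil-DNA glycosylase (-0.65, SE 0.106, adjusted p = 2.72e-04, limma). At an unadjusted p under 0.05 there were 9 with hairpin 1 (26.5%), against 18.4% of all genes. Groups did not overlap for 13 (38.2%), against 25.1%, and 25 of the 34 lay above 0 and 9 below. Of all 8228 genes, 4139 lay above 0 and 4089 below. With hairpin 5, limma called 0 of the 34, against 3.52% of all genes. There were 7 at an unadjusted p under 0.05 (20.6%), against 15.7%, and groups did not overlap for 8 (23.5%), against 20.8%. Of 35 other mitosis genes, Lmnb1, for lamin B1, fell with hairpin 1 (-0.35, adjusted p = 0.0134) and Knstrn, for a kinetochore protein, with hairpin 5 (-0.43, adjusted p = 0.0428). That is 2.86% of the list with each hairpin, against 5.83% and 3.52% of all genes. Groups did not overlap for 13 with hairpin 1 (37.1%), against 25.1%, and for 4 with hairpin 5 (11.4%), against 20.8%. The calls for Lmnb1 and Knstrn rest on the probe chosen, since a more variable probe of the same gene gave 0.08 for Lmnb1 and 0.10 for Knstrn. Other settings ended them too: Lmnb1 kept its call with hairpin 1 in 12 of 20 alternatives and Knstrn with hairpin 5 in 10.

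Of 20 regulators of the G1 kinases, 1 rose and 3 fell with hairpin 1, and 1 rose and 2 fell with hairpin 5. These are 20% and 15% of a list chosen with earlier results of these data known, against 5.83% and 3.52% of all genes. Cdkn1a, for the inhibitor p21, averaged 9.20 ± 0.0569 with hairpin 1, against 8.60 ± 0.114 with scramble (SD, n = 3 each), a rise of 0.60 (adjusted p = 3.65e-04, limma). Ccnd1, for cyclin D1, averaged 12.35 ± 0.0433 with hairpin 1, 12.38 ± 0.0786 with hairpin 5 and 12.69 ± 0.0390 with scramble, and it fell with both (-0.34, adjusted p = 0.0095, and -0.31, adjusted p = 0.0262, limma). E2f4 (-0.48) and Cdkn2c, for the inhibitor p18 (-0.41), fell with hairpin 1. Cdk2, the partner of cyclin E, averaged 10.25 ± 0.0138 with hairpin 1, 9.56 ± 0.126 with hairpin 5 and 10.09 ± 0.0281 with scramble. It fell with hairpin 5 (-0.53, adjusted p = 1.13e-04, limma) and was 0.69 higher with hairpin 1 than with hairpin 5 (adjusted p = 4.55e-06, limma). Ccnd3, for cyclin D3, rose with hairpin 5 (0.32, adjusted p = 0.0408, limma). Rb1, the retinoblastoma gene, was 0.51 higher with hairpin 1 than with hairpin 5 (adjusted p = 0.0148, limma). The call for Ccnd1 with hairpin 5 was lost in 8 of 20 alternatives and that for Ccnd3 in 10.

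In 4TO7, arrays labelled TM4SF1 showed no detectable difference from the empty vector in any of the 46 genes. With limma 0 passed an adjusted p of 0.05, and 1, Mcm3, had an unadjusted p under 0.05, while 0.0243% of all genes were called. Groups did not overlap for 3 of the 46 (6.52%), against 12.7% of all genes. Mcm3, a subunit of the replicative helicase, read 8.05, 8.09 and 7.73 with TM4SF1, against 7.59, 7.72 and 7.58 with the empty vector. The groups did not overlap by a narrow margin, and the difference of 0.33 (95% interval 0.07 to 0.58) had an adjusted p of 0.558 (limma). Bub1b had the lowest value, with 7.46, 7.53 and 7.91 on the arrays labelled TM4SF1, against 7.85, 7.71 and 7.84 with the empty vector (-0.16, adjusted p = 0.818, limma). The 95% intervals lay within ±1 for all 46 genes and within ±0.5 for 38, against 8196 and 6133 of all 8228 genes. The median was 0.01, against -0.001 over all genes, and -0.15 under median scaling, where that of all genes was -0.18. Of the other replication, other mitosis and G1 regulator genes, 0 were called, with 1, 2 and 2 at an unadjusted p under 0.05 (2.94%, 5.71% and 10%), against 7.22% of all genes.

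**Figure D4:**
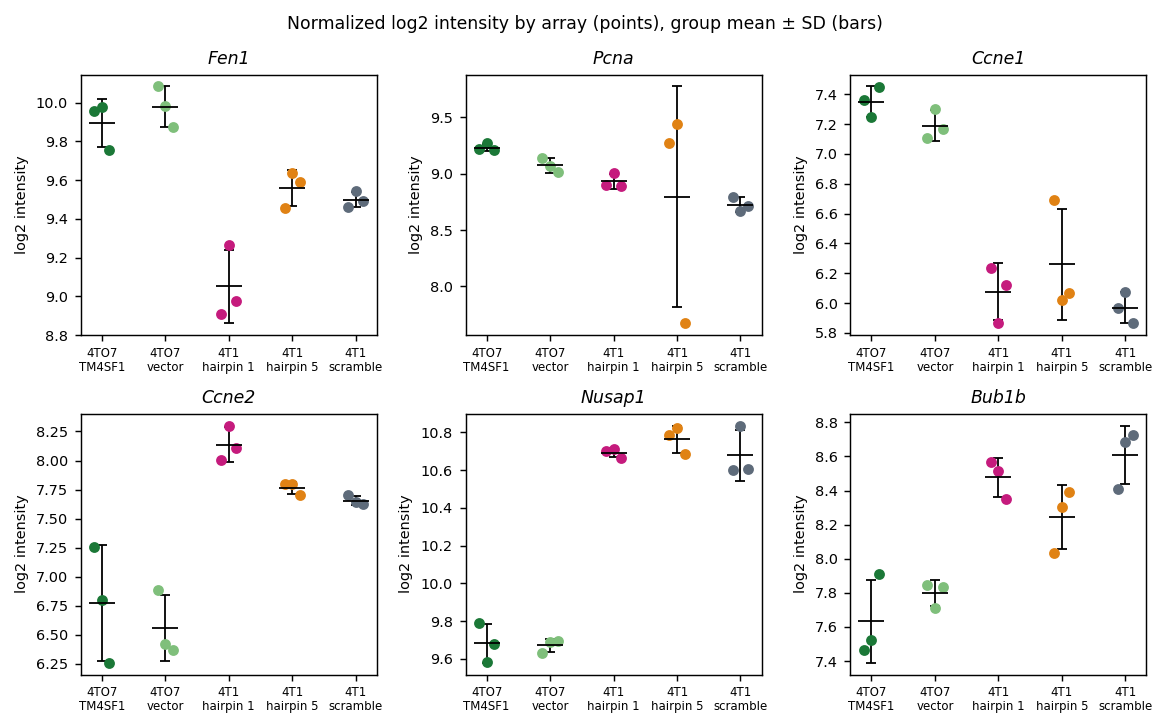
Normalized log2 intensity (y axis) of 6 genes on each array (points), with the group mean and SD (bars, n = 3), for the 5 groups (x axis). Fen1 is low with hairpin 1, the third hairpin 5 array of Pcna lies apart at 7.67, and Ccne1, Ccne2, Nusap1 and Bub1b separate the 4TO7 arrays from the 4T1 arrays.

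Between the lines the picture was different. Empty-vector 4TO7 differed from scramble 4T1 in 27 of the 46 genes (58.7%), against 48.3% of all genes tested, so the share was not far from the background. Of these, 10 were higher in 4TO7 (25.6% of all genes were) and 17 lower (22.8%). Groups did not overlap for 28 (60.9%), against 57% of all genes. Under median scaling of the arrays 5 of the 27 calls remained, Ccne1, Ccne2, Nusap1, Prim1 and Ttk. Of the 17 genes for nucleotide synthesis, the fork, G1/S control and chromatin assembly, 8 were higher and 2 lower, with a median of 0.23. The 10 licensing genes, counted with the replication genes in the promoter windows, were taken separately here. Among them, 1 was higher and 6 were lower, with a median of -0.31. Pooled as in the promoter windows, the calls among replication and G1/S genes had no common direction. Of the 19 mitotic genes, 1 was higher and 9 were lower, with a median of -0.18. Over all genes the median was 0.03. The line, the viral vector and the hairpin differ together in this comparison and cannot be told apart.

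The cyclin E genes went opposite ways. Ccne1 read 7.10, 7.30 and 7.16 in empty-vector 4TO7, against 5.97, 6.08 and 5.87 in scramble 4T1, far apart on every array. It was 2.33-fold higher in 4TO7 (1.22, SE 0.164, adjusted p = 6.18e-07, limma). Ccne2 read 6.88, 6.42 and 6.37 in empty-vector 4TO7, against 7.70, 7.64 and 7.62 in scramble 4T1. It was 2.14-fold lower (-1.10, SE 0.172, adjusted p = 6.55e-06, limma), and both calls held in all 20 alternatives. E2f1, for a transcription factor of the G1/S switch, read 10.38, 10.39 and 10.33 in 4TO7, against 9.75, 9.76 and 9.91 in 4T1 (0.56, adjusted p = 4.55e-07, limma). Chaf1b, a subunit of the chromatin assembly factor CAF-1, was also higher (0.28, adjusted p = 0.0037), whereas Chaf1a stood at 0.04 and Uhrf1, which maintains DNA methylation, at 0.20, neither called.

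Both subunits of ribonucleotide reductase, which makes deoxynucleotides, were higher in 4TO7. Rrm1 read 10.01, 10.03 and 10.05 in 4TO7, against 9.47, 9.46 and 9.40 in 4T1 (0.58, SE 0.0801, adjusted p = 8.43e-07, limma), and Rrm2 differed by 0.35 (adjusted p = 0.0049). Tyms, thymidylate synthase, and Tk1 stood at 0.06 and 0.14 and were not called. At the fork, Fen1 was higher, at 10.08, 9.98 and 9.88 in 4TO7, against 9.46, 9.54 and 9.49 in 4T1 (0.48, adjusted p = 1.18e-04, limma). Prim1 (0.60, adjusted p = 0.0249) and the polymerase delta gene Pold1 (0.23, adjusted p = 0.0331) were higher too, and Rfc4 was lower (-0.39, adjusted p = 0.0251). These 3 calls were less firm: Prim1 lost its call in 4 of 20 alternatives, Pold1 in 8 and Rfc4 in 9. Pcna, at 9.14, 9.07 and 9.01 in 4TO7, against 8.80, 8.67 and 8.71 in 4T1, did not overlap but was not called (0.35, adjusted p = 0.234), its SE of 0.236 including the low hairpin 5 array.

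The licensing genes were mostly lower in empty-vector 4TO7. Mcm7 read 7.68, 7.44 and 7.62 in empty-vector 4TO7, against 8.35, 8.31 and 8.22 in scramble 4T1 (-0.71, SE 0.16, adjusted p = 5.86e-04, limma). Mcm3 read 7.59, 7.72 and 7.58 in empty-vector 4TO7, against 8.51, 8.33 and 8.08 in scramble 4T1 (-0.67, adjusted p = 5.35e-05). Mcm10 (-0.44), Cdc45 (-0.33), Cdt1 (-0.31) and Mcm4 (-0.30) were lower as well. Mcm2, a subunit of the same hexamer, was higher (0.37, adjusted p = 0.00106), and Mcm5, Mcm6 and Cdc6 were not called, at -0.13, 0.16 and -0.01. The subunits of 1 complex thus did not share a direction.

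Among the mitotic genes, Nusap1, for a microtubule-binding protein of the spindle, had the lowest p. It read 9.63, 9.69 and 9.69 in 4TO7, against 10.60, 10.83 and 10.60 in 4T1, or 2.01-fold lower (-1.01, SE 0.0786, adjusted p = 2.72e-11, limma). Its 2 dimmer probes pointed the same way without passing, at -0.43 and -0.29. Bub1b read 7.85, 7.71 and 7.84 in 4TO7, against 8.41, 8.69 and 8.73 in 4T1 (-0.81, adjusted p = 4.76e-06, limma). Cdc20, the activator of the anaphase-promoting complex, was lower by all 4 of its probes (-0.51 at the brightest and -0.68 to -0.85 at the others), and Birc5 by all 3 (-0.49, and -0.65 and -0.75 at the others). Top2a, topoisomerase II alpha (-0.40), the spindle assembly factor gene Tpx2 (-0.37), Cdk1 (-0.30), Aurka (-0.22) and the centromeric histone gene Cenpa (-0.18) were lower too. Ttk was higher (0.64, adjusted p = 0.0162), though it was detected on only 13 of 15 arrays. Plk1, Mad2l1, Ube2c, Ccna2, Cdc25c, Prc1, Kif11, Kif2c and Kif23 were not called.

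**Figure D5:**
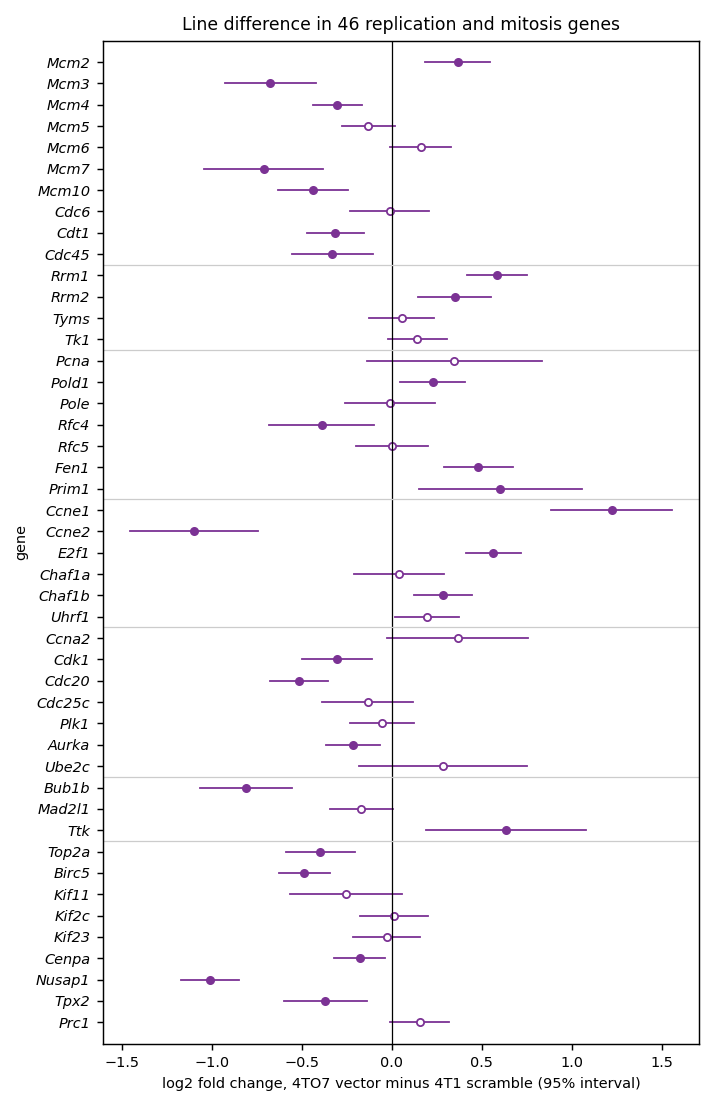
Log2 fold change of empty-vector 4TO7 minus scramble 4T1 (x axis) with its 95% interval for the 46 genes (rows, grouped by role). Filled points are the calls at 0.05, with 10 to the right of 0 and 17 to the left, and the largest in each direction are Ccne1 and Ccne2.

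The 6 arrays of 4TO7 did not overlap with the 9 of 4T1 for 18 of the 46 genes (39.1%), against 32.5% of all genes. All 18 were among the 27 called, with 7 higher in 4TO7, against 16.6% of all genes (Mcm2, Rrm1, Rrm2, Fen1, Ccne1, E2f1 and Chaf1b) and 11 lower, against 15.9% (Mcm4, Mcm10, Cdt1, Ccne2, Cdk1, Cdc20, Aurka, Bub1b, Top2a, Birc5 and Nusap1). Nusap1 lay between 9.58 and 9.79 on the arrays of 4TO7, against 10.60 to 10.83 on those of 4T1. Ccne1 lay between 7.10 and 7.45 in 4TO7, against 5.87 to 6.69 in 4T1. Where a gene had further kept probes, 18 of 21 such probes had the sign of the brightest one, and all 12 did where the brightest was called. Of these 12, 7 were called themselves, with the adjustment taken over all kept probes.

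Set beside the promoter windows searched above, which covered 40 of the 46 genes, the calls between the lines went both ways in every motif class. Of all genes tested, 25.6% were higher in 4TO7 and 22.8% lower. Of the 9 genes with an E2F match, 1 (Pold1) was higher in 4TO7 and 4 (Mcm3, Mcm7, Cdt1 and Cdk1) were lower. Of the 31 without an E2F match, 9 were higher and 10 were lower. Of the 17 with a CHR match, 3 (Mcm2, Fen1 and Ttk) were higher and 8, Bub1b and Cdk1 among them, were lower. Of the 23 without a CHR match, 7, Ccne1 among them, were higher and 6 were lower. Of the 25 with a CCAAT box, 5 were higher and 10 lower, and of the 15 without one, 5 were higher and 4 lower. Differences between these classes were not tested.

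The further lists were called between the lines at about the share of all genes (48.3%), with 41.2% of other replication genes, 42.9% of other mitosis genes and 50% of G1 regulators. Of 34 other replication genes, 9 were higher in 4TO7 and 5 lower, led by Gins3 (0.47) of the helicase and, on the lower side, by the checkpoint kinase gene Chek1, at least 2.04-fold lower (adjusted p = 3.87e-06, limma) because it was detected on no array of empty-vector 4TO7, and by Mybl2 (-0.60) and the dUTPase gene Dut (-0.60). Of 35 other mitosis genes, 3 were higher, Pbk (0.67), Foxm1 (0.41) and Cdca5 (0.32), and 12 lower, among them Knstrn (-0.98), Dlgap5 (-0.80) and the securin gene Pttg1 (at least 1.38-fold lower). Of 20 G1 regulators, 8 were higher and 2 lower. Ccnd2, for cyclin D2, was at least 1.99-fold higher, as it was detected on no scramble array, Cdkn1a 0.83 higher and the pocket protein gene Rbl1 0.69 higher. Lower in 4TO7 were Skp2 (-0.71), for the ubiquitin ligase subunit that removes p27, and Cdkn2c (-0.42). The summed intensity of 8 epithelial markers was 3357 to 3882 in empty-vector 4TO7, against 8568 to 9068 in scramble 4T1, and that of 8 fibroblast markers 521 to 541, against 935 to 1009. The fibroblast markers did not share a direction: Dcn was higher in 4TO7 (2.23, adjusted p = 8.59e-13, limma), whereas Pdgfra was lower (-1.59, adjusted p = 2.93e-14, limma) and Pdgfrb at least 1.24-fold lower. The part of these differences in the results for the 46 genes was not tested.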

How the data were processed

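Expression was measured on 15 Illumina arrays. The deposited intensity of each probe was linear and neither normalized nor background-subtracted, with a detection p-value, per the file headers. GenomeStudio is the tool in the submitters' processing notes. A second deposited table held the authors' normalized intensity, with no method named in the labels, and served as an alternative. Gene symbols came from the platform annotation, and a probe may also bind a close paralog.

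Background was corrected with limma's normexp (controls inferred from detection p-values, offset 16), followed by quantile normalization and log2. The detection filter (p under 0.01, 3 arrays or more) left 11109 of 25697 probes. The brightest probe per symbol left 7576 named genes. A further 652 probes without a symbol each stood alone, and all 8228 are called genes here. In limma 3.58.1 (R 4.3.3), 1 model with a mean per group and a variance trend took all 15 arrays. The p-values are two-sided and Benjamini-Hochberg adjusted within a comparison over all genes, with calls at 0.05. The fit was checked on simulated data. Precision is limited by the number of arrays, with a median SE of 0.13, and an exact permutation of 3 against 3 cannot go below 0.1. For a probe detected on no array of a group, "at least" compares the brighter mean with, on each array of the other group, whichever is higher of that probe's value and the lowest signal that counted as detected.

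The genes and gene lists were chosen with earlier results of these data known. Named in each comparison were the genes passing the test (up to 4 per role, by size), or the highest and lowest where none did, up to 3 each way from each further list, and Tm4sf1. The rest of the line calls, Pcna, Ccne2 and Birc5 under the hairpins and unchanged genes were added afterwards. Motifs were searched with Python 3.11.15. Replicate numbers did not pair the arrays (correlations of deviations from -0.146 to 0.063).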

Additional observations from a re-analysis of the deposited data

Results flagged for a closer look

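Fen1 differed between the hairpins against the same target gene: hairpin 1 minus hairpin 5 was -0.51 on the log2 scale (adjusted p = 0.0029, limma), lower on 3 of 3 arrays. Groups of 3 arrays are too small for a test of single outlying arrays, so the low hairpin 5 array of Pcna (replicate 3) is given as a value only.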

How the results depend on the processing

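Each result was recomputed under 20 alternatives per comparison. Scaling the arrays to a common median, which raised the median SE from 0.13 to 0.27, changed most. Genes called were then 21 (6 higher, 15 lower) with hairpin 1, 15 (4 and 11) with hairpin 5, 2 between the hairpins, 0 with TM4SF1 and 1553 between the lines. Of the 46 genes, 0, 0, 0, 0 and 5 were called, the 5 being Ccne1, Ccne2, Nusap1, Prim1 and Ttk between the lines. With no detection filter, 318, 170 and 101 genes were called with hairpin 1, with hairpin 5 and between the hairpins. With no variance trend, 84 were called between the hairpins and 0 with TM4SF1, as were 0 with TM4SF1 when only the arrays compared were fitted. Of the 46 genes, 2 were called with hairpin 1 without background correction, with only the arrays compared, or with array weights. Leaving out 1 array at a time gave 273 to 355, 145 to 258, 80 to 161, 1 to 3 and 3599 to 3620 genes in the 5 comparisons, and of the 46 genes 1, 0 to 1, 1 to 2, 0 and 22 to 27, the extra call being Pcna without the third array of hairpin 5. The gene count moved by over 1.5 times with hairpin 1 without scramble replicate 1 (290) or 3 (281) or hairpin 1 replicate 2 (289) or 3 (273), with hairpin 5 without scramble replicate 1 (153) or 3 (145) or hairpin 5 replicate 1 (153), between the hairpins without hairpin 1 replicate 1 (100), 2 (80) or 3 (90) or hairpin 5 replicate 1 (92), and with TM4SF1 without replicate 1 of either 4TO7 group (1 each). Pcna with hairpin 5 ranged from -0.25 to 0.63 (-0.17 without replicate 1, -0.25 without replicate 2). The most variable probe in place of the brightest turned Lmnb1 to 0.080 with hairpin 1 and 0.48 between the hairpins, and Knstrn to 0.098 with hairpin 5, and the mean of all probes turned Lmnb1 to 0.071 between the hairpins. Tm4sf1 with TM4SF1 turned to -0.065 under median scaling and to -0.075 without vector replicate 2 (0.34 without vector replicate 1). With the replicate block, 443 genes were called with hairpin 1 and the calls among the 46 numbered 1, 0, 1, 0 and 27. Fewer arrays and another probe change a value by construction; for the other settings the cause was not tested.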
